A study of Mus musculus with 12 samples.

Results

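The glucocorticoid receptor *Nr3c1*, 7 genes that the activated receptor is known to induce (*Fkbp5*, *Tsc22d3*, *Zbtb16*, *Sgk1*, *Cdkn1a*, *Hif3a* and *Klf15*) and the enzymes that switch the hormone on and off in tissue (*Hsd11b1* and *Hsd11b2*) were followed in mouse sciatic nerve. These 10 genes were matched by symbol among 43432 genes of the count table, and all 10 were among the 17257 genes with enough counts to be tested. They were chosen by their known roles and with values of these same libraries in view, so their levels and differences in the 3 groups are given as a description, and the adjusted p-values beside them carry no weight as tests of a question set in advance. One sciatic nerve per mouse was collected at 1 month of age from 12 mice of 3 groups of 4. WT control mice were compared with *Mtmr2* KO mice, which lack the phosphoinositide phosphatase mutated in the demyelinating neuropathy CMT4B1, and with niacin-treated *Mtmr2* KO mice.

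The control and untreated KO mice are labelled as having received no treatment. The treated KO mice were given niacin by intraperitoneal injection at 120 mg/kg from day 10 after birth and, from day 21 to day 30, a slow-release granule by gavage, for which the study's methods name a dose of 960 mg/kg. The KO mice were made on a 129/SvPas background. Each group held 3 males and 1 female. The study's text calls the untreated KO mice of this comparison vehicle treated, whereas their label gives no treatment, so whether they were injected and gavaged alike is unsettled, and the drug and its handling cannot be told apart.

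Glucocorticoids are steroid hormones of the adrenal cortex that rise with the daily rhythm and with stress. The receptor waits in the cytoplasm in a complex with heat shock protein chaperones, moves to the nucleus when it binds hormone, and turns on target genes through paired copies of a short DNA word. In peripheral nerve, Schwann cells, fibroblasts, endothelial cells and adipocytes all carry the receptor, and several of its targets, among them *Fkbp5* and *Tsc22d3*, are used in many tissues as a readout of recent hormone exposure.

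Library totals ran from 26653828 to 28390961 counts in WT, from 20763951 to 33191106 in KO and from 20983641 to 22935378 in niacin-treated KO. Levels below are CPM, counts divided by a library size that was scaled by TMM. The library labelled *Mtmr2* KO replicate 4503, the deepest of the 12, went against its label, because *Mtmr2* was 143 CPM in it, within the 128 to 161 CPM of the 4 WT libraries, and 69.5 to 84.7 CPM in the other 3 KO libraries. This library is kept under its label, and the differences that involve the KO group are also given without it. It held the highest level of 19.5% of all genes tested (3369), and KO replicate 4502 that of 4139. *Xist*, used here as the marker of female sex, was 545 CPM in WT replicate 4498, 687 in KO replicate 4502 and 585 in niacin-treated replicate 4506. It was at most 5.99 CPM in every other library. Markers of myelinating Schwann cells, 6 of 6 detected, summed to 60464 to 115145 CPM in every library, as nerve should hold. Those of skeletal muscle summed to 3052 and 2992 CPM in niacin-treated replicates 4506 and 4507, against 25.7 to 89.4 CPM elsewhere, and those of white adipocytes ran from 754 to 4564 CPM. Bulk nerve cannot separate fewer cells of a type from less RNA per cell.

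Per kilobase of exon, the scale on which genes can be set beside each other, the order of levels in WT nerve ran from *Cdkn1a* to *Hsd11b2*. *Cdkn1a* was at 109 ± 6.86 CPM per kilobase (SD, n = 4), *Tsc22d3* at 50.4 ± 1.08 and *Sgk1* at 39.3 ± 3.19, and these ranges did not overlap. *Nr3c1*, at 24.2 ± 1.15, and *Klf15*, at 22.6 ± 3.69, could not be ordered, since their WT ranges overlapped. *Fkbp5* (5.76 ± 1.95), *Zbtb16* (5.26 ± 3.47), *Hif3a* (3.02 ± 1.53) and *Hsd11b1* (2.94 ± 0.768) overlapped likewise, each with its neighbours in the order. *Hsd11b2* was lowest, at 0.462 ± 0.159 CPM per kilobase, and had 4 to 37 counts in a library over all 12. The induced genes thus stood at very different levels in unchallenged nerve, and *Zbtb16* and *Hif3a* had the largest SD relative to their mean among WT mice.

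**Figure D1:**
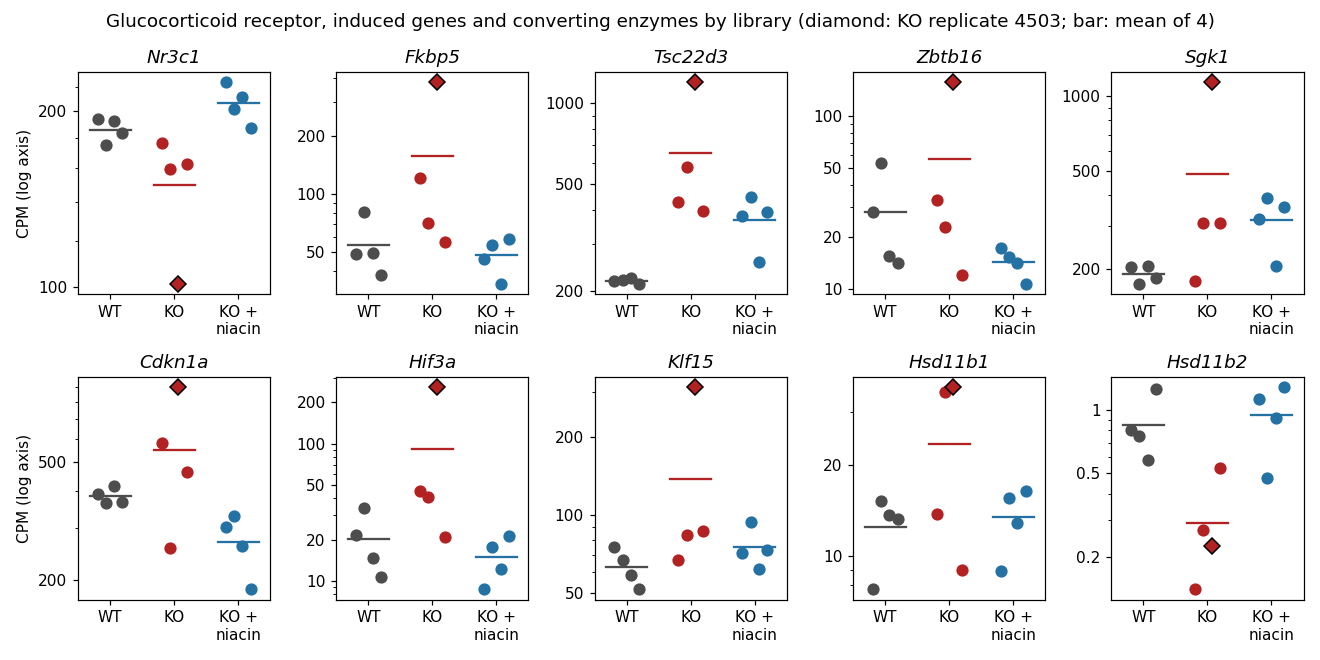
Level of each of the 10 genes in the 12 libraries (CPM, log axis), by group, with a bar at the mean of 4 libraries and a diamond for the library labelled *Mtmr2* KO replicate 4503. In 8 of the 10 panels the diamond is the highest point, and in that of *Nr3c1* it is the lowest.

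*Nr3c1* (GRCm38 chromosome 18, 39410545 to 39519421, minus strand) encodes the receptor itself. It was 194, 175, 192 and 183 CPM in WT replicates 4497 to 4500, 176, 159, 101.1 and 162 CPM in KO replicates 4501 to 4504, and 225, 202, 211 and 187 CPM in niacin-treated replicates 4505 to 4508. Replicate 4503 was the lowest of all 12 libraries. The 4 niacin-treated libraries all lay above the 4 KO libraries, by 0.46 on the log2 scale (SE 0.16), a 1.38-fold difference with an adjusted p of 0.134 in the quasi-likelihood test of edgeR after Benjamini-Hochberg adjustment. Such a gap between groups was not rare, since 7.01% of all genes tested had it in that comparison. Without replicate 4503 the difference was 0.31 (SE 0.12) and the groups still did not overlap. As compared with WT, *Nr3c1* was lower in KO by a log2 value of -0.31 (SE 0.16), and -0.17 (SE 0.12) without replicate 4503.

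*Fkbp5* (chromosome 17, 28399094 to 28517527, minus strand) encodes an immunophilin that docks on the receptor's chaperone complex and lowers its affinity for hormone, a feedback brake. Its level was 49.1, 81.1, 49.8 and 38.3 CPM in the WT libraries, 122, 71.1, 379 and 56.4 CPM in KO, and 46.2, 54.6, 34.2 and 58.8 CPM in niacin-treated KO. Replicate 4503 stood 3.12-fold above the next highest of the 12 libraries, and WT and the other KO libraries overlapped. The log2 difference between KO and WT was 1.53 (SE 0.48, 2.88-fold, edgeR adjusted p = 0.151) with all libraries and 0.61 (SE 0.29) without replicate 4503. Between niacin-treated and untreated KO it was -1.70 (SE 0.49, edgeR adjusted p = 0.0912) and -0.78 (SE 0.29) without that library.

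*Tsc22d3* and *Sgk1* are shown with the sequence before a start site, because *Tsc22d3* was the induced gene whose 4 KO libraries all lay above WT, and *Sgk1* was the gene with a window that held both arms of the element in a row. The stretches are from RefSeq windows of 300 bases (250 before a start and 50 after it, GRCm38.p6), of which the bases outside annotated exons are shown, written 5′ to 3′ on the gene's strand. Capitals mark the palindrome that the receptor dimer binds, AGAACA and TGTTCT with any 3 bases between them, or a single arm, AGAACA or TGTTCT. Both strands were searched, and the arms of a full palindrome were counted as single arms too.
Sgk1, chr10:21993640-21993889, plus strand, inside the gene before an internal start: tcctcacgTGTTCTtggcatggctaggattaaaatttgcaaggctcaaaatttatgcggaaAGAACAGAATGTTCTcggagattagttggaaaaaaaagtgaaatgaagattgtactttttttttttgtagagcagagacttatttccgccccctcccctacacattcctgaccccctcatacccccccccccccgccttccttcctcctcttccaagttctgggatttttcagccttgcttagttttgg
Tsc22d3, chrX:140600660-140600772, minus strand, before the gene: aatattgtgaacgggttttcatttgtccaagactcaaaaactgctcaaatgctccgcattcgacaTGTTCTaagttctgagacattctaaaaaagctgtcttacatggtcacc

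The full palindrome was in 3 of 32851 windows of the genome (0.00913%), 1 of which was that of *Sgk1*, where it began 189 bases before the start. A single arm was in 6233 windows (19%), and in 4 of the 15 windows that matched 7 of the 10 genes, those of *Sgk1* and *Tsc22d3*. *Fkbp5*, *Hif3a*, *Klf15*, *Cdkn1a* and *Hsd11b1* had windows without these letters, and *Nr3c1*, *Zbtb16* and *Hsd11b2* were not matched. A match describes letters and not a bound site.

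*Tsc22d3* (chromosome X, 140539528 to 140600659, minus strand) encodes a leucine zipper protein that mediates part of the anti-inflammatory action of glucocorticoids. It was 219, 220, 224 and 212 CPM in WT, 430, 579, 1200.0 and 398 CPM in KO, and 379, 447, 256 and 394 CPM in niacin-treated KO. Every KO library lay above every WT library, and so did every niacin-treated library, while KO and niacin-treated KO overlapped. The groups did not overlap for 9.32% of genes in the first of these comparisons and for 31.4% in the second. WT nerves were tightly grouped, at 219 ± 4.69 CPM (SD, n = 4), as compared with 652 ± 374 in KO, or 469 ± 96.8 (SD, n = 3) without replicate 4503, and 369 ± 80.9 in niacin-treated KO.

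The log2 difference of *Tsc22d3* between KO and WT was 1.58 (SE 0.30, 2.98-fold) with an edgeR adjusted p of 0.0502, which did not pass the threshold of 0.05, and 1.10 (SE 0.19, adjusted p = 0.0639) without replicate 4503. The same test gave adjusted p-values of 0.0243, 0.0487 and 0.0168 without KO replicates 4501, 4502 and 4504, in fits that called 2.60%, 0.446% and 1.54% of all genes, and from 0.0586 to 0.156 without any 1 of the WT or niacin-treated libraries. DESeq2, the tool the study used, gave 6.8e-05 over all 12 libraries, calling 3.77% of genes, and 1.41e-05 over the 11 libraries without replicate 4503, calling 4.62%, a setting chosen after the data were seen. As compared with untreated KO, niacin-treated KO differed by -0.82 (SE 0.30, adjusted p = 0.154), and by -0.34 (SE 0.19) without replicate 4503. *Tsc22d3* thus stayed apart from WT in every KO library, with a smaller difference when the highest library was left out.

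*Sgk1* (chromosome 10, 21882184 to 21999903, plus strand) encodes a kinase induced by serum and glucocorticoids that regulates ion channels and cell survival. It was 204, 174, 207 and 185 CPM in WT, 180, 308, 1142 and 309 CPM in KO, and 318, 389, 207 and 357 CPM in niacin-treated KO. KO replicate 4501 lay within the WT range, whereas all 4 niacin-treated libraries lay above WT, the lowest of them by under 0.1 CPM (207.07 against 207.02). The latter groups did not overlap for 31.4% of all genes. The log2 difference between KO and WT was 1.33 (SE 0.44, edgeR adjusted p = 0.161), and 0.46 (SE 0.22) without replicate 4503. Between niacin-treated and untreated KO the sign turned with that library, from -0.61 (SE 0.43) to 0.26 (SE 0.23).

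*Zbtb16* (chromosome 9, 48654297 to 48836222, minus strand), a zinc finger repressor that is among the genes most strongly induced by glucocorticoids in cultured cells, was 27.7, 53.7, 15.5 and 14.2 CPM in WT, 32.7, 22.7, 158 and 12.1 CPM in KO, and 17.3, 15.2, 14.03 and 10.6 CPM in niacin-treated KO. Apart from replicate 4503, the highest value was in WT replicate 4498, the WT library high in *Xist*. The difference between KO and WT, 1.02 on the log2 scale (SE 0.64), became -0.30 (SE 0.42) without replicate 4503. As compared with KO, niacin-treated KO was at -1.98 (SE 0.66, edgeR adjusted p = 0.128), and at -0.66 (SE 0.42) without it.

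*Hif3a* (chromosome 7, 17031507 to 17062427, minus strand) encodes a subunit of the hypoxia-inducible factor family that glucocorticoids also induce. Over all 12 libraries it had the largest fold difference of the 10 between KO and WT and between niacin-treated and untreated KO. Without replicate 4503 *Hsd11b2* differed more in both, and *Tsc22d3* differed more between KO and WT. *Hif3a* was 21.7, 34.0, 14.7 and 10.6 CPM in WT, 45.4, 41.2, 257 and 20.9 CPM in KO, and 8.67, 17.8, 12.2 and 21.1 CPM in niacin-treated KO. Even without replicate 4503 the mean of KO (35.8 ± 13.1 CPM, SD, n = 3) was above that of WT (20.2 ± 10.2, n = 4), but KO replicate 4504 lay among the WT libraries. The log2 difference was 2.17 (SE 0.65, 4.51-fold, edgeR adjusted p = 0.130), and 0.82 (SE 0.38) without that library. Niacin-treated KO differed from KO by -2.61 (SE 0.67, edgeR adjusted p = 0.0675), and by -1.26 (SE 0.39, adjusted p = 0.178) without it. For the 11 libraries DESeq2 gave an adjusted p of 0.0298 to this latter difference, among 2.88% of genes called.

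*Klf15* (chromosome 6, 90462576 to 90475238, plus strand), a transcription factor of amino acid and lipid breakdown, was 75.1, 67.2, 58.4 and 51.4 CPM in WT, 66.8, 83.8, 313 and 86.4 CPM in KO, and 71.1, 93.5, 61.9 and 73.2 CPM in niacin-treated KO. Outside replicate 4503 the 3 groups overlapped closely. Its log2 difference between KO and WT was 1.13 (SE 0.39), and 0.32 (SE 0.17) without replicate 4503. Between niacin-treated and untreated KO it was -0.88 (SE 0.39), and -0.08 (SE 0.17) without it.

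*Cdkn1a* (chromosome 17, 29090976 to 29100727, plus strand) encodes a cyclin-dependent kinase inhibitor that p53 induces as well as glucocorticoids, and an exon of it overlaps an unnamed gene on the other strand. It was 392, 366, 417 and 367 CPM in WT, 582, 257, 899 and 462 CPM in KO, and 302, 328, 260 and 186 CPM in niacin-treated KO. All 4 niacin-treated libraries lay below WT, and KO replicate 4502 lay below WT too, so KO spread on both sides of the controls. Niacin-treated KO and WT did not overlap for 31.4% of all genes. The log2 difference between KO and WT was 0.51 (SE 0.29), and 0.17 (SE 0.25) without replicate 4503. Niacin-treated KO differed from KO by -1.03 (SE 0.29, 2.04-fold lower, edgeR adjusted p = 0.0907), and by -0.69 (SE 0.25, adjusted p = 0.239) without replicate 4503.

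*Hsd11b1* (chromosome 1, 193221634 to 193264075, minus strand) encodes the enzyme that regenerates active hormone from its inert keto form inside cells and is abundant in fat and fibroblasts. It was 7.75, 15.2, 13.7 and 13.3 CPM in WT, 13.8, 35.0, 36.2 and 8.996 CPM in KO, and 8.91, 15.6, 12.8 and 16.5 CPM in niacin-treated KO. KO replicates 4502 and 4503 were nearly equal and stood above the other 10 libraries. The log2 difference between KO and WT was 0.91 (SE 0.38), and 0.62 (SE 0.38) without replicate 4503, and between niacin-treated and untreated KO -0.80 (SE 0.38) and -0.51 (SE 0.38). The white adipocyte marker sum was highest in replicate 4502, at 4564 CPM, and 1671 CPM in replicate 4503, while the fibroblast sum was 3225 and 5306 CPM, as compared with 8289 to 14095 CPM in WT. In replicate 4502 *Cfd*, *Fabp4*, *Adipoq*, *Cidec* and *Retn* were above every WT library, but *Plin1* (49.0 CPM) and *Lep* (12.7 CPM) were below every one. *Col1a1*, *Col3a1* and *Dpt* were below every WT library in both replicates. *Pdgfra*, also a fibroblast marker, was 260 and 326 CPM in them and 217 to 266 CPM in WT. The part of fat cells and fibroblasts in the *Hsd11b1* level was not tested.

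*Hsd11b2* (chromosome 8, 105518755 to 105523988, plus strand) encodes the opposing enzyme, which inactivates the hormone in tissues that respond to aldosterone. It was 0.800, 0.755, 0.581 and 1.26 CPM in WT, 0.139, 0.269, 0.224 and 0.529 CPM in KO, and 1.13, 0.477, 0.914 and 1.29 CPM in niacin-treated KO. All KO libraries lay below WT, with and without replicate 4503, although with 4 counts in the lowest library the counting error was large. KO and WT did not overlap for 9.32% of all genes over the 12 libraries, and without replicate 4503 that share was not computed. The log2 difference between KO and WT was -1.59 (SE 0.44, edgeR adjusted p = 0.111), and between niacin-treated and untreated KO 1.74 (SE 0.44, adjusted p = 0.0669). Without replicate 4503 they were -1.48 (SE 0.49) and 1.64 (SE 0.50), so of the 10 genes *Hsd11b2* changed least in proportion when that library was left out.

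**Figure D2:**
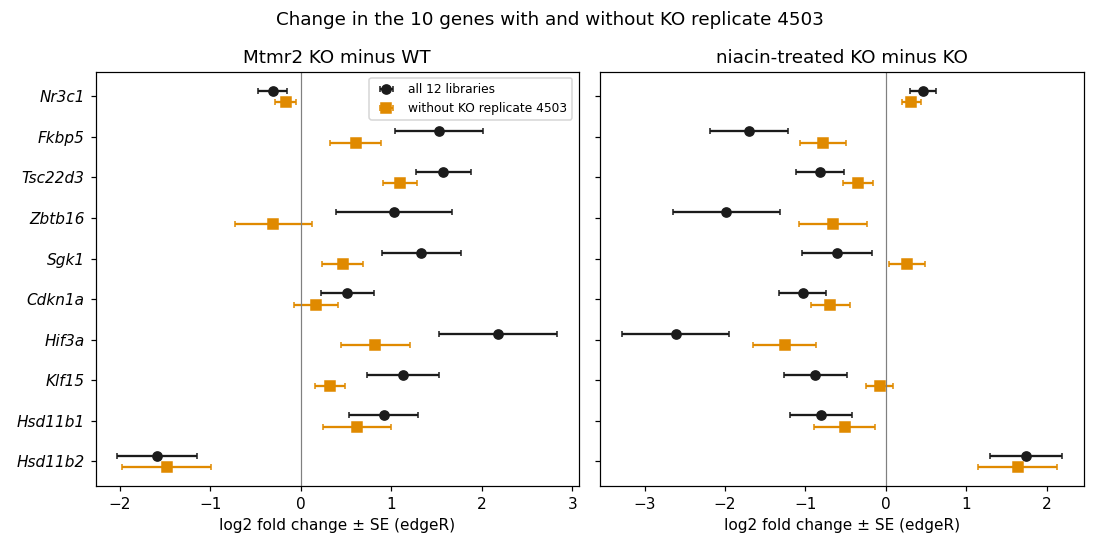
Log2 fold change with its SE from edgeR for the 10 genes, between *Mtmr2* KO and WT (left) and between niacin-treated and untreated *Mtmr2* KO (right), over all 12 libraries (circles) and without KO replicate 4503 (squares). Squares lie nearer 0 than circles for all 10 genes in both panels, and cross 0 for *Zbtb16* on the left and *Sgk1* on the right.

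Counted over the 10 genes, 8 had a higher mean in KO than in WT and 2 a lower one, with a median log2 difference of 1.08 beside 0.03 over all genes tested. None of the 10 was called by edgeR, in a fit that called 0.267% of all genes. At an unadjusted p under 0.05 there were 7 (6 higher and 1 lower), beside 1613 higher and 1363 lower of all 17257 genes. Without replicate 4503 the median was 0.39, 2 of the 10 had an unadjusted p under 0.05, beside 1825 higher and 1352 lower of 17430 genes, and none was called, with 0.0344% of all genes called. DESeq2 over all 12 libraries, where it called 3.77% of genes, called *Tsc22d3* and *Hsd11b2* (adjusted p = 0.0307). Over the 11 libraries without replicate 4503 it called *Tsc22d3* but not *Hsd11b2*. Most of the differences in means shrank without 1 KO library, and *Tsc22d3* and *Hsd11b2* were the genes whose groups stayed apart without it. Over all 12 libraries 9.32% of all genes had groups apart. That share was not computed without replicate 4503, so the 2 genes cannot be set against it.

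Between niacin-treated and untreated KO, 8 of the 10 means were lower and 2 higher, with a median of -0.85 beside -0.04 over all genes, and none was called, where edgeR called 1.43% of all genes. The unadjusted p was under 0.05 for 8 genes, beside 1383 higher and 2089 lower of all 17257. Without replicate 4503 it was so for 5, beside 1053 higher and 1268 lower of 17430, where the median was -0.43 and 0.0746% of all genes were called. This comparison shares its KO libraries with the one above, so the opposite signs are not a separate observation. DESeq2 called 4, *Fkbp5*, *Cdkn1a* and *Hif3a* as lower and *Hsd11b2* as higher (adjusted p from 0.0107 to 0.0414), where it called 6.42% of genes. Without KO replicate 4502 edgeR called 6 of the 10, the same 4 together with *Nr3c1* (higher) and *Zbtb16* (lower), in a fit that called 23.6% of all genes, and without replicate 4504 it called 3, *Fkbp5*, *Hif3a* and *Hsd11b2*, where 2.87% of genes were called.

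Between niacin-treated KO and WT, 6 means were higher and 4 lower, with a median of 0.13 beside 0.02. None of the 10 was called, as edgeR called 0 genes (0%) in this comparison over the shared fit, with 1742 genes higher and 2512 lower at an unadjusted p under 0.05, of which 1 was of the 10. DESeq2 over all libraries called 7.56% of genes and none of the 9 of the 10 genes to which it gave an adjusted p, which *Hsd11b2* lacked. When only these 2 groups were fitted edgeR called 33.9% of all genes and 3 of the 10, *Tsc22d3* (log2 difference 0.76), *Sgk1* (0.73) and *Cdkn1a* (-0.52), which were also the genes whose groups did not overlap. Neither count stood out, since the groups did not overlap for 31.4% of all genes. Over 11 libraries, without KO replicate 4503, *Tsc22d3* was called by edgeR (adjusted p = 0.0499), where 1.74% of genes were called. *Fkbp5*, *Zbtb16* and *Hif3a* had lower means than WT in treated nerves, with log2 differences of -0.17 (SE 0.48), -0.96 (SE 0.65) and -0.44 (SE 0.64), whereas *Tsc22d3* and *Sgk1* were above it.

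In replicate 4503, 8 of the 10 genes had the highest level of all 12 libraries, and 6 (*Fkbp5*, *Tsc22d3*, *Zbtb16*, *Sgk1*, *Hif3a* and *Klf15*) exceeded every other library by over 2-fold, which 1.35% of all genes did. Since the genes were picked with these values known, the counts are a description. *Hif3a* was 7.19-fold above the mean of the other 3 KO libraries, *Zbtb16* 7.03-fold, *Fkbp5* 4.57-fold, *Sgk1* 4.30-fold, *Klf15* 3.96-fold, *Tsc22d3* 2.56-fold, *Cdkn1a* 2.07-fold and *Hsd11b1* 1.88-fold. Of the 11 marker lists of cell types, 8 had sums in replicate 4503 within the range of the other 11 libraries. The exceptions were the highest sums of perineurial cells (1152 CPM, 1.23-fold the WT mean) and endothelial cells (564 CPM, 1.16-fold), and the lowest of brown adipocytes (1.06 CPM), whose sum was at most 14.7 CPM in any library. Markers within the perineurial and endothelial lists went both ways. *Slc2a1* (442 CPM) and *Itgb4* (555 CPM) were highest of all 12 libraries, and *Cldn1* (154 CPM) was lowest. *Cldn5* (154 CPM) and *Pecam1* (185 CPM) were highest, and *Kdr* (53.8 CPM) and *Tek* (37.3 CPM) lay below every WT library. The part of these cell types in the levels of the 10 genes was not tested, and the sources used here do not give the time of day at which nerves were taken.

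A further list of 30 genes that glucocorticoids induce in other tissues, chosen with earlier results of these data known and held apart from the 10, was read in the same way. All 30 were tested. In KO as compared with WT, 28 had a higher mean, beside 9327 of all 17257 genes tested. The median log2 difference was 0.49, beside 0.03 over all genes. In a fit that called 0.267% of all genes, 1 of the 30 passed the threshold. It was *Lcn2*, which encodes an iron-binding acute-phase protein made by neutrophils and stressed epithelia, at 2.15, 4.42, 2.90 and 6.25 CPM in WT and 31.8, 44.2, 51.0 and 5.29 CPM in KO. It rose by 3.07 on the log2 scale (SE 0.57, edgeR adjusted p = 0.0457), with KO replicate 4504 inside the WT range, and was not called without replicate 4503 (2.78, SE 0.57, adjusted p = 0.0834). The 4 neutrophil markers, of which 2 were tested, summed to 14.9, 13.7, 3.88 and 0.962 CPM in the same KO libraries and to at most 0.615 CPM in WT, and their part in the *Lcn2* level was not tested.

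Between niacin-treated and untreated KO, 27 of the 30 had a lower mean, beside 9333 of all 17257 genes tested. The median was -0.49, beside -0.04 over all genes. Of the 30, 4 were called, all lower, in a fit that called 1.43% of all genes. The metallothionein *Mt1*, a zinc- and copper-binding protein, was 209, 330, 211 and 213 CPM in WT, 675, 1891, 1385 and 345 CPM in KO, and 163, 203, 120 and 221 CPM in niacin-treated KO. Its groups did not overlap in either comparison with KO, and it fell by 2.603 on the log2 scale with niacin (SE 0.42, edgeR adjusted p = 0.0383). *Mt2* fell by 2.73 (SE 0.53, adjusted p = 0.0401), *Lcn2* by 3.54 (SE 0.59, adjusted p = 0.0383) and *Fbxo32*, a ubiquitin ligase of muscle wasting, by 0.87 (SE 0.16, adjusted p = 0.0401), all from the same test. In niacin-treated KO *Lcn2* was 1.47, 2.08, 3.02 and 4.76 CPM, below every KO library. *Fbxo32* was 32.3, 36.2, 39.1 and 31.7 CPM in WT, 40.8, 52.6, 56.3 and 35.0 CPM in KO, and 25.5, 27.8, 27.4 and 20.5 CPM in niacin-treated KO, below both other groups. Of all genes, 9.32% did not overlap between KO and WT, and 7.01% between niacin-treated and untreated KO. Between niacin-treated KO and WT the share was 31.4%.

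None of the 4 was called by edgeR without replicate 4503, where it called 0.0746% of all genes. Their edgeR adjusted p-values ran from 0.0686 to 0.0800, with log2 differences of -2.45 (*Mt1*), -1.98 (*Mt2*), -3.25 (*Lcn2*) and -0.76 (*Fbxo32*). DESeq2 called all 4 over those 11 libraries, where it called 2.88% of genes. For the 30 genes the medians without that library were 0.25 in KO against WT and -0.18 in niacin-treated against untreated KO. Between niacin-treated KO and WT 16 means were higher and 14 lower, the median was 0.02 and none was called. *Glul*, glutamine synthetase and the most abundant of the 30, was 511 to 806 CPM in every library but 4503, where it was 2550.4 CPM.

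**Figure D3:**
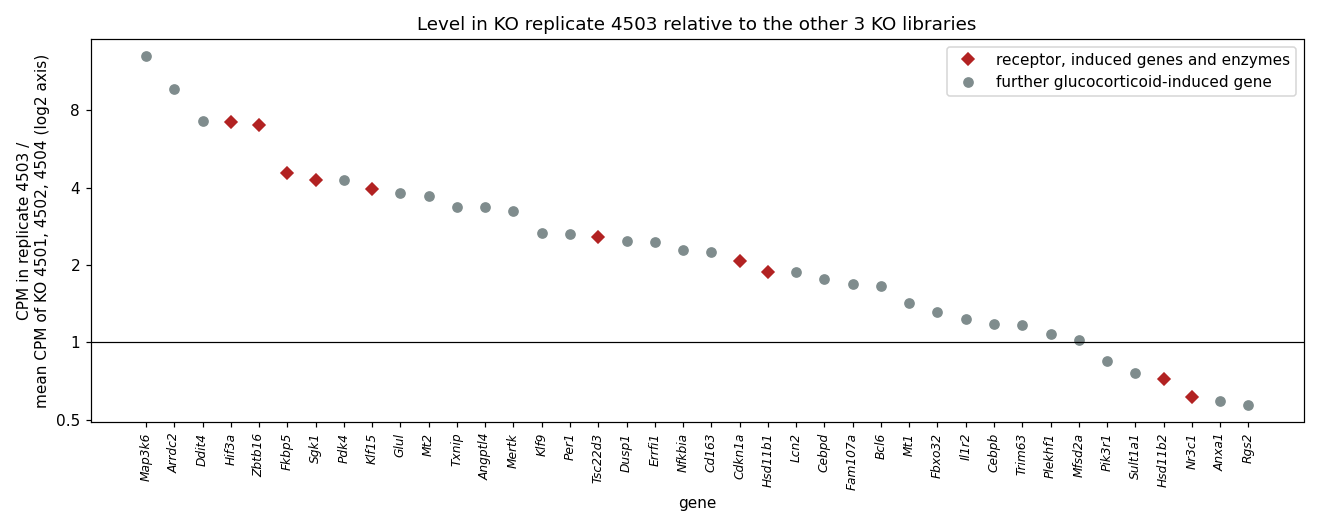
Ratio of the level in *Mtmr2* KO replicate 4503 to the mean of the other 3 KO libraries (log2 axis), for the 10 genes (diamonds) and the 30 further glucocorticoid-induced genes (circles), in descending order. The ratio runs from 12.99 for *Map3k6* to 0.572 for *Rgs2*, and *Nr3c1* is at 0.609.

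Replicate 4503 held the highest level of 20 of these 30 genes, beside 19.5% of all genes, and 10 exceeded every other library by over 2-fold, beside 1.35%. The largest ratios to the next highest library were those of *Map3k6* (9.87), a stress kinase, *Arrdc2* (7.30), an arrestin-domain protein, *Ddit4* (5.78), an inhibitor of mTOR, *Pdk4* (3.71), which shuts pyruvate out of the mitochondrion, and *Glul* (3.16). These genes are named after their values were seen. *Anxa1*, an anti-inflammatory annexin, went the other way and was lowest in that library, at 111 CPM.

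A looser form of the receptor's word, GNACA and TGTNC with any 3 bases between them, was in 156 windows of the genome (0.475%) and in 6 of the 33 windows that matched 27 of the 30 genes. Short stretches around it are printed for the genes where it overlapped no annotated exon, with the match in capitals, from RefSeq on GRCm38.p6 and on the gene's strand, to be set beside the element of *Sgk1* above.
Map3k6, chr4:133240617-133240669, plus strand: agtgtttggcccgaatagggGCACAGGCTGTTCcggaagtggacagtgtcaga
Mt1, chr8:94178975-94179027, plus strand: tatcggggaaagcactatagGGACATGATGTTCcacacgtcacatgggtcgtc
Fam107a, chr14:8309865-8309917, minus strand: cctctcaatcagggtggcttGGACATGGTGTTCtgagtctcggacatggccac
Trim63, chr4:134314892-134314944, plus strand: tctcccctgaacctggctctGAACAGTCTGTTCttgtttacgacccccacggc

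The match lay 181 bases before the start in *Map3k6*, 94 in *Mt1*, 118 in *Fam107a* and 208 in *Trim63*, and *Txnip* held 1 as well. Among the 10 genes only *Sgk1* had it. Of the genes printed, *Map3k6* and *Fam107a* were highest in replicate 4503, as were *Txnip* and *Sgk1*, and *Mt1* was not. *Trim63*, a muscle ubiquitin ligase, was under 1 CPM in every library but niacin-treated replicates 4506 and 4507, at 3.90 and 2.51 CPM, those with skeletal muscle markers.

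Over the 12 libraries edgeR called no gene of 4 further lists around the receptor in any comparison. Without replicate 4503 it called 2, both between niacin-treated KO and WT, where it called 1.74% of all genes. Both are named after their values were seen. *Ccl2*, a monocyte-attracting chemokine that glucocorticoids repress, was higher by 1.82 on the log2 scale (SE 0.36, edgeR adjusted p = 0.0497), at 7.85 to 19.6 CPM in treated nerves and 2.37 to 4.71 CPM in WT, and at 0.833 CPM in replicate 4503, the lowest of 12. *Arntl*, the clock's positive arm, was lower at -1.33 (SE 0.25, adjusted p = 0.0497), at 2.40 to 4.07 CPM in treated nerves and 5.82 to 10.2 CPM in WT, and at 17.1 CPM in replicate 4503, the highest of 12. Of 14 receptor chaperones and coregulators, all were tested, and 7 means were higher and 7 lower in KO than in WT, with a median of 0.00 and 1 unadjusted p under 0.05, and 5 higher and 9 lower without replicate 4503 (median -0.09). *Hsp90ab1*, the chaperone that holds the receptor ready for hormone, was 1214 ± 97.6 CPM in WT, 1260.3 ± 72.8 in KO and 895 ± 155 in niacin-treated KO (SD, n = 4), the last lower than all other libraries, with a log2 difference from KO of -0.49 (SE 0.16, adjusted p = 0.118). Niacin-treated KO did not overlap with KO for 7.01% of all genes, nor with WT for 31.4%. *Hspa8*, a heat shock protein of the same pathway, was 423 to 582 CPM in WT and reached 1266.5 CPM in KO replicate 4502. Of the 14, 10 means were lower in niacin-treated than in untreated KO (median -0.13, 3 with an unadjusted p under 0.05, and 13 lower with a median of -0.14 without replicate 4503), and 11 were lower than in WT (median -0.18, 4 such).

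Of 8 genes of steroid supply and clearance, 6 were tested, with 3 means higher and 3 lower in KO than in WT (median 0.03, and -0.02 without replicate 4503). *Serpina6*, the plasma carrier of the hormone, had no count in any library, which allows up to 3 counts each, and *Cyp11b1*, the last step of its synthesis, was at 0 in 10 of 12 libraries. *H6pd*, which feeds *Hsd11b1* with cofactor, was 94.3 ± 5.81 CPM in WT, 81.2 ± 31.9 in KO and 58.4 ± 7.60 in niacin-treated KO, where all 4 libraries lay below WT (log2 difference -0.69, SE 0.22, edgeR adjusted p = 0.114). Niacin-treated KO and WT did not overlap for 31.4% of all genes. *Abcb1a*, an efflux pump that exports steroids, was 95.8 ± 11.7, 100.9 ± 29.6 and 77.2 ± 14.5 CPM in the same order. In niacin-treated as compared with untreated KO 4 of the 6 means were lower (median -0.31, and -0.19 without replicate 4503), and as compared with WT 3 were (median 0.02).

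Of 10 inflammatory genes that glucocorticoids repress, 7 were tested. *Il6*, *Il1b* and *Tnf*, under 1 CPM in all 12 libraries, did not pass the filter on counts. The median log2 difference of the 7 was -0.02 between KO and WT, 0.22 between niacin-treated and untreated KO and 0.20 between niacin-treated KO and WT. Without replicate 4503, when 9 of the 10 passed the filter, the first was 0.49 and the sign of the second turned too, at -0.05, with 0.28 for the third. *Vcam1*, an adhesion molecule, was 13.3 ± 0.863, 13.1 ± 3.10 and 15.3 ± 1.52 CPM in WT, KO and niacin-treated KO, and *Icam1*, another, was 10.97 ± 1.90, 9.76 ± 3.28 and 7.27 ± 1.28 CPM. Of 14 circadian clock genes all were tested, with medians of 0.07, -0.03 and 0.09 in the same comparisons, and of 0.04, 0.12 and 0.09 without replicate 4503. *Per1*, a clock gene that glucocorticoids also induce and that is on the list of 30 too, was 105 to 145 CPM in WT, 326 CPM in KO replicate 4503 and 91.9 to 147 CPM in the other KO libraries. *Tef*, an output gene of the clock, was 197 ± 23.9, 208 ± 61.3 and 207 ± 22.6 CPM (SD, n = 4), so replicate 4503, at 238 CPM, was within the range of the other KO libraries.

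**Figure D4:**
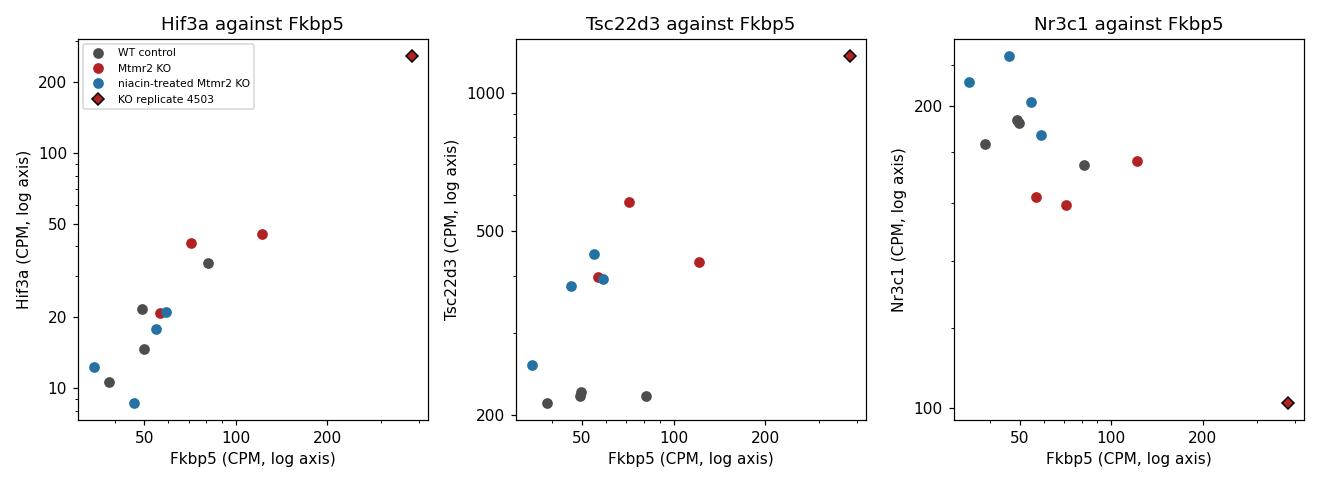
Level of *Hif3a*, *Tsc22d3* and *Nr3c1* against that of *Fkbp5* in the 12 libraries (CPM, log axes), coloured by group, with a diamond for KO replicate 4503. *Hif3a* follows *Fkbp5* along the whole range, with r of 0.961 over the 12 libraries and 0.876 without the diamond.

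Across the 12 libraries, which include 3 groups and so are not replicates of a condition, *Hif3a* tracked *Fkbp5* most closely among the 10 genes (Pearson r = 0.961 and Spearman rho = 0.895 of log2 CPM), and r was 0.852 without KO replicates 4501 and 4503, the libraries farthest from the median of *Fkbp5*. *Zbtb16* (r = 0.877), *Klf15* (0.846), *Tsc22d3* (0.785), *Cdkn1a* (0.730), *Sgk1* (0.682) and *Hsd11b1* (0.646) followed, and without those 2 libraries r was 0.554, 0.510, 0.369, -0.03, 0.214 and 0.459. *Nr3c1* ran opposite to *Fkbp5* (r = -0.885, rho = -0.769, and r = -0.621 without those 2 libraries), as did *Hsd11b2* (-0.711, and -0.501). Without replicate 4503 alone, r was 0.624 for *Zbtb16*, 0.438 for *Tsc22d3*, 0.389 for *Cdkn1a*, 0.330 for *Hsd11b1*, 0.277 for *Klf15* and -0.11 for *Sgk1*, so for all of these but *Zbtb16* the relation rested largely on that library. It was -0.557 for *Nr3c1* and -0.749 for *Hsd11b2*. All values are descriptions over libraries of unequal depth.

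The 5 genes outside the list, with a mean of at least 5 CPM, whose level was most like that of *Fkbp5* were *Pex5l* (r = 0.969), *Fam105a* (0.967), *Angpt2* (0.964), *Mbtd1* (0.964) and *Pnpla7* (0.963). Without KO replicates 4501 and 4503 their r was 0.830, 0.745, 0.709, 0.768 and 0.754, and without replicate 4503 alone it was from 0.859 to 0.912. *Fam105a* was 7.67, 10.9, 8.17 and 7.38 CPM in WT, 31.9, 20.7, 129 and 9.72 CPM in KO, and 8.18, 7.02, 6.21 and 9.61 CPM in niacin-treated KO. *Pex5l*, a relative of the peroxisomal import receptor, kept a narrow range of 84.1 to 208 CPM over the 12 libraries. *Angpt2*, a vascular growth factor, reached 98.0 CPM in replicate 4503 against at most 47.2 CPM elsewhere.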

How the data were processed

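Poly(A)-selected RNA of 12 mouse sciatic nerves was sequenced in reads of 150 bases. The authors deposited raw counts per gene, and the submitters' notes name CASAVA 1.9, STAR, DESeq2 and GRCm38. The sources used here do not name the counting tool, its strand setting or the annotation version. The deposited tables of the authors' own comparisons hold fold changes and p-values, which were not used; only gene identifiers and symbols were read from them. Coordinates and exon lengths are from GENCODE M21.

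The counts were filtered (filterByExpr, by group), scaled by TMM and fitted with edgeR 4.0.16 (R 4.3.3) in 1 quasi-likelihood model of 3 groups, two-sided, with Benjamini-Hochberg adjustment over 17257 genes and calls at an adjusted p under 0.05. Log2 CPM used a prior count of 2. The script was tested on simulated data. The 20 alternatives used DESeq2 1.42.0, limma 3.58.1, other filters and scaling, an *Xist* covariate for sex, and each library left out. DESeq2 over 11 libraries was added after seeing the data. DESeq2 gave no adjusted p to *Hsd11b2* between niacin-treated KO and WT, over 12 or 11 libraries, nor to *Map3k6* and *Arrdc2* over 12 in any comparison.

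The 10 genes and all lists were chosen with earlier results of these data known. Named genes were the 10, *Mtmr2*, up to 5 called genes of each list with the smallest p in each comparison and its 2 most abundant genes, and the 5 genes most like *Fkbp5* in level. Each library is a separate mouse, and counting error grows as counts fall, which matters here for *Hsd11b2*.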

Additional observations from a re-analysis of the deposited data

Results flagged for a closer look

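In 30 groups of 4 libraries (10 genes in 3 groups), the extreme library's gap to its nearest neighbour was set against the range. The gap as a share of the range exceeded Dixon's 95% critical value in 4. All 4 were the library labelled *Mtmr2* KO replicate 4503. Chance alone gives about 1 in 20 for a single group chosen in advance. The 10 genes were chosen with these values known and were read in the same mice. The 4 flags thus describe 1 library and cannot be set against that rate. *Zbtb16* was 158 CPM in it, as compared with 32.7 CPM in the nearest KO library. *Sgk1* was 1142 CPM, as compared with 309 CPM. *Hif3a* was 257 CPM, as compared with 45.4 CPM. *Klf15* was 313 CPM, as compared with 86.4 CPM.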

How the results depend on the processing

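Without any 1 library, edgeR called 0 to 457 genes, 0 to 2 of the 10 and 0 to 5 of the 30 further genes between KO and WT (the most genes without KO replicate 4501), 0 to 4180, 0 to 6 and 0 to 16 between niacin-treated and untreated KO, and 0 to 3826, 0 to 1 and 0 to 3 between niacin-treated KO and WT (the most genes in the last pair of comparisons without KO replicate 4502).

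Between KO and WT the reported counts were 46, 0 and 1. DESeq2 over all libraries gave 683, 2 and 5, DESeq2 over the 2 groups 427, 1 and 4, no filter 341, 2 and 4, limma-voom with quality weights 108 genes and 0 of the 30, edgeR over the 2 groups 0 genes and 0 of the 30, and the *Xist* covariate 12 genes and 0 of the 30. DESeq2 over 11 libraries gave 767 genes, 1 and 3. DESeq2 size factors gave 1 of the 10 and 2 of the 30, without a count over all genes here to set them against. Between niacin-treated and untreated KO the reported counts were 246, 0 and 4. DESeq2 over all libraries gave 1078, 4 and 7, DESeq2 over the 2 groups 444 genes and 1 of the 10, limma-voom 2007 and 2, no filter 573 and 5, edgeR over the 2 groups 0 genes and 0 of the 30, and the *Xist* covariate 50 genes. DESeq2 over 11 libraries gave 496 genes and 1 of the 10. Between niacin-treated KO and WT the reported counts were all 0. DESeq2 over all libraries gave 1070 genes, no filter 311, DESeq2 over the 2 groups 5791, 3 and 8, limma-voom 7311, 2 and 10, and edgeR over the 2 groups 5586, 3 and 6. The cause of these shifts was not tested.

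The sign of a log2 difference turned for *Zbtb16* between KO and WT (-0.30, in a range up to 1.56 with 1 library left out) and *Sgk1* between niacin-treated and untreated KO (0.26, in a range from -0.88) without KO replicate 4503. Between niacin-treated KO and WT it turned for *Fkbp5* without WT replicate 4498 (0.079, in a range from -0.31), for *Hsd11b1* without WT replicate 4497 (-0.064, in a range up to 0.26) or niacin-treated replicate 4508 (-0.0033), and for *Hsd11b2* without niacin-treated replicate 4508 (-0.029, in a range up to 0.41). Of 199 values of the 10 genes in each comparison, the sign and the side of the threshold held in 188, 177 and 186. DESeq2 size factors moved the median of all genes by under 0.1. No paired analysis was possible because the groups share no replicate numbers. *Hsd11b2*, at 4 to 37 counts, is limited by depth.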
